A study of Mus musculus with 12 samples.

Results

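The genes of oxidative phosphorylation were followed in neural stem cells (NSCs) of the neonatal mouse forebrain that carried Ncf1, lacked it, or lacked it and were given Igfbp2. Members were taken by gene symbol, as the genes named Nduf (complex I), Sdh (complex II), Uqcr (complex III), Cox4i to Cox8 (complex IV) and Atp5 (ATP synthase), together with the mRNAs of the mitochondrial genome. The rule found 105 of the 45792 genes listed, of which 92 are encoded in the nucleus and 13 in mitochondria, and it left out 4 pseudogenes. Ndufa4 and Ndufa4l2 were placed with complex IV, and 7 assembly factors of complex I (Ndufaf1 to Ndufaf7) and 2 genes whose products are no subunits (Atp5s and Atp5sl) were kept apart.

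Complexes I to IV pass electrons from NADH and succinate to oxygen, complexes I, III and IV pump protons across the inner mitochondrial membrane, and ATP synthase uses the proton gradient to make ATP. Complexes I, III, IV and ATP synthase hold subunits from both genomes, so that each is put together from proteins imported from the cytosol and a few core proteins made in the mitochondrial matrix, while complex II is encoded in the nucleus alone. Stem and progenitor cells of the brain draw much of their energy from glycolysis, and respiration gains weight as their progeny differentiate.

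NSCs came from WT mice and from mice lacking Ncf1 (Ncf1-/-), a subunit that organises the NADPH oxidase Nox2, and were cultured as primary cells in serum-free medium with EGF and FGF. The 12 libraries, 1 for each culture, were 4 of WT NSCs without treatment (replicates 9 to 12), 4 of Ncf1-/- NSCs given vehicle (replicates 1 to 4) and 4 of Ncf1-/- NSCs given recombinant mouse Igfbp2, an insulin-like growth factor binding protein, at 100 ng/ml by the labels (replicates 5 to 8). The methods of the study state another concentration. Igfbp2 was added 48 h after plating and RNA was taken 48 h later, and as the study describes it, each Ncf1-/- preparation gave both a vehicle and an Igfbp2 culture. There was no Igfbp2-treated WT group, so that the treatment was seen in Ncf1-/- NSCs only.

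Libraries held between 18201622 and 34086554 expected counts. Ncf1 itself had 2 to 7 counts in WT, 2 to 4 in Ncf1-/- and 1 in every Igfbp2-treated Ncf1-/- library, too few to check the genotype. Genes of the Y chromosome (Uty, Kdm5d, Eif2s3y and Ddx3y) summed to 105 to 115 CPM (counts scaled to library size) in Ncf1-/-, 7.79 to 9.17 CPM in Igfbp2-treated Ncf1-/-, 107 to 118 CPM in WT replicates 9 to 11 and 6.45 CPM in WT replicate 12, so that Igfbp2 and sex-linked expression cannot be told apart. The level of Xist was 72.2 to 87.7 CPM in Ncf1-/- and 166 to 274 CPM in Igfbp2-treated Ncf1-/- libraries. It was 3.86 to 5.22 CPM in WT replicates 9 to 11 and 290.5 CPM in WT replicate 12. The Ncf1-/- libraries thus held both Xist and Y-linked transcripts. No WT library held both at such levels, so that genotype and sex-linked expression cannot be told apart either. By the methods, vehicle and Igfbp2 cultures were paired by animal, and all 4 pairs differed in the Y-linked genes. WT replicate 12 is also listed as an apocynin-treated culture in a second sample list of the study, while its label says untreated, and counts that it moved are given with and without it. The summed markers of the proliferating state (Mki67, Top2a, Cdk1, Ccnb1 and Mcm2) lay at 266 to 501 CPM in WT, 1136 to 1522 CPM in Ncf1-/- and 1085 to 1369 CPM in Igfbp2-treated Ncf1-/- libraries. The 6 neural stem and progenitor markers summed to 2296, 2378, 7755 and 3576 CPM in WT replicates 9 to 12 and to 7327 to 8136 CPM in the other libraries, with 2 of the 6 called higher and 3 called lower between Ncf1-/- and WT NSCs. The 8 oligodendrocyte markers summed to 2091 to 9935 CPM in WT against 669 to 825 CPM in the other libraries. Microglia markers stayed at or under 1.45 CPM in all libraries.

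Without Ncf1, most nuclear genes of all 5 complexes were expressed at a higher level. Mitochondrial mRNAs were not. Summed over the 92 nuclear members, the level was 7785, 6885, 7664 and 7461 CPM in WT and 11742, 10797, 11531 and 10246 CPM in Ncf1-/- libraries. The groups did not overlap, with means of 7449 ± 399 and 11079 ± 687 CPM (SD, n = 4 each). Summed over the 13 mitochondrial mRNAs, the level was 7113, 6480.0, 8236 and 5594 CPM in WT and 5976, 6077, 5136 and 5583 CPM in Ncf1-/- libraries, and these groups overlapped.

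**Figure D1:**
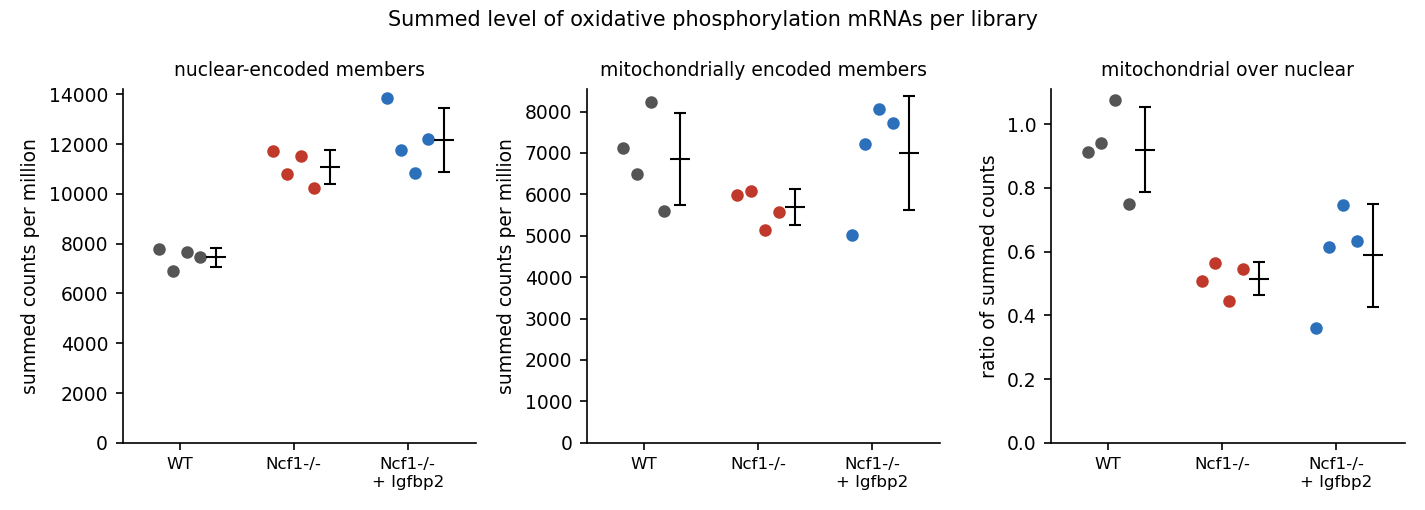
Summed level of the 92 nuclear members (left, CPM), of the 13 mitochondrial mRNAs (middle, CPM) and the ratio of the summed mitochondrial to the summed nuclear counts (right) in each library of WT, Ncf1-/- and Igfbp2-treated Ncf1-/- NSCs, with 1 point per library and the mean and SD of 4 libraries beside them. The nuclear sum lay between 6885 and 7785 CPM in WT and between 10246 and 13868 CPM in the 8 Ncf1-/- libraries, and the ratio was 0.750 to 1.07 in WT and 0.361 to 0.745 in the 8 Ncf1-/- libraries.

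For the test, expected counts were rounded, scaled with TMM factors and fitted over all 15706 genes that passed a filter on low counts with edgeR's quasi-likelihood test, and a gene was called at a Benjamini-Hochberg adjusted p under 0.05. The filter passed 88 of the 92 nuclear and all 13 mitochondrial members. The 4 left out were isoform genes of complex IV known from muscle or testis (Cox6a2, Cox7b2, Cox8b and Cox8c), of which Cox7b2 and Cox8c had 0 counts in all libraries. Between Ncf1-/- and WT NSCs, 67 of the 88 nuclear members tested were called higher, where 28.9% of all genes tested were, and 0 were called lower, where 28.2% of all genes were. For 61 of the 88, every Ncf1-/- library lay above every WT library, against 26.1% of all genes. The median log2 fold change was 0.48 over the nuclear members (a 1.40-fold difference) and 0.02 over all genes tested. Of the 13 mitochondrial mRNAs, 0 were called higher and 2 were called lower, 3 had every Ncf1-/- library below every WT library, where 25% of all genes had, and their median was −0.02.

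The cell markers above moved with this comparison: all 5 proliferation genes were called higher in Ncf1-/- NSCs, and 7 of 8 oligodendrocyte, 4 of 5 astrocyte and 4 of 6 neuron markers were called lower. Of 5 mesenchymal and mural markers, 3 were called higher and 1 lower. WT replicate 11, with a summed level of the stem and progenitor markers of 7755 CPM, had a nuclear member sum of 7664 CPM, within the range of the other WT libraries. The same library had the lowest proliferation sum of all libraries, at 266 CPM, and the highest astrocyte sum, at 10904 CPM. Without WT replicates 9 and 10, the libraries with the lowest stem and progenitor sums, 58 members were called higher, where 23.5% of all genes were, and the nuclear median was 0.51. The WT replicates kept in that fit, 11 and 12, had proliferation sums of 266 and 272 CPM, below the 482 and 501 CPM of replicates 9 and 10. They thus lay further from Ncf1-/- NSCs in these markers. The part of these cell markers in the result was not tested, and fewer cells of a type and less RNA per cell cannot be told apart in these bulk cultures.

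**Figure D2:**
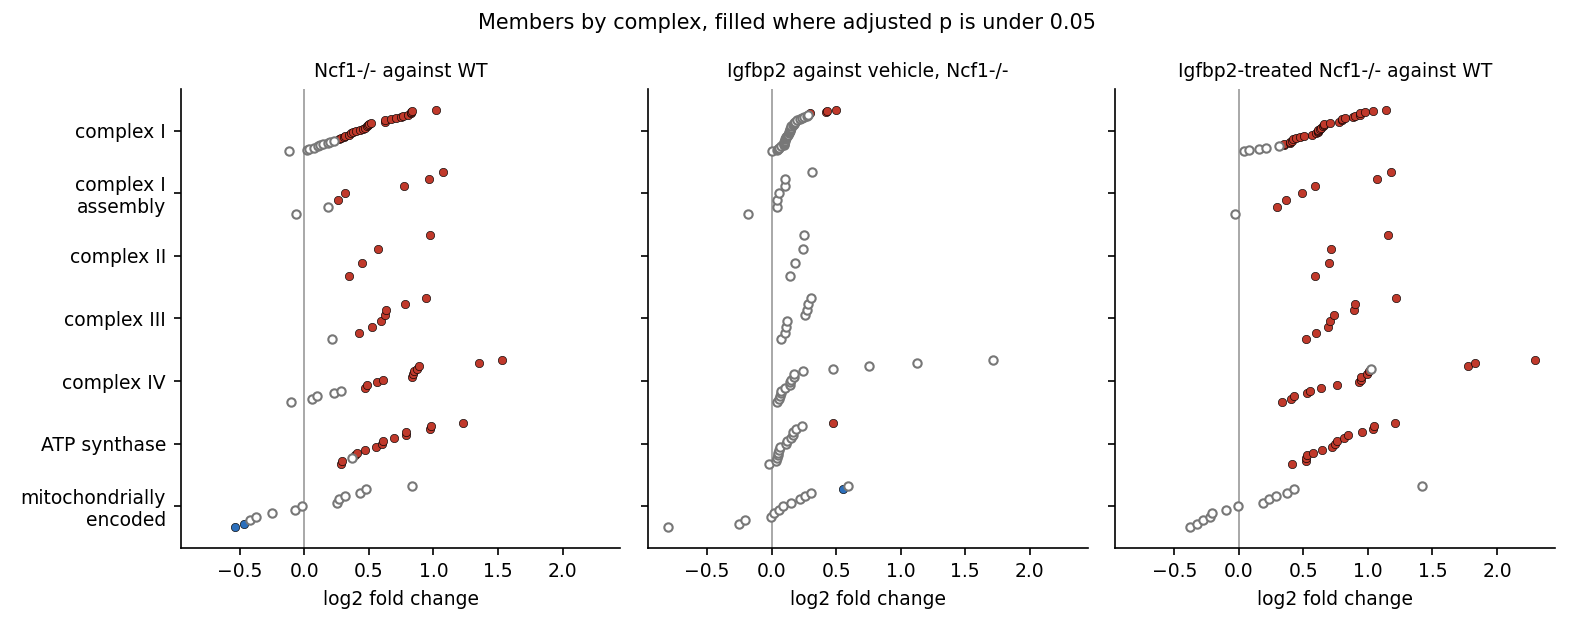
Log2 fold change (horizontal axis) of every member tested, by complex for the nuclear members and in the last group for the 13 mitochondrial mRNAs, in Ncf1-/- against WT, Igfbp2-treated against vehicle-treated Ncf1-/-, and Igfbp2-treated Ncf1-/- against WT NSCs. Each point is 1 gene, and filled points passed an adjusted p of 0.05, in red for nuclear genes and in blue for mitochondrial mRNAs. Between Ncf1-/- and WT NSCs the nuclear members run from −0.12 to 1.53 with a median of 0.48 and the mitochondrial mRNAs from −0.54 to 0.83 with a median of −0.02.

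Complex I, the entry point for electrons from NADH, had 26 of its 36 nuclear subunits called higher in Ncf1-/- NSCs, with a median log2 fold change of 0.42. Among the deposited counts, the largest difference of its subunits was in Ndufb4, an accessory subunit of the membrane arm (ENSMUSG00000022820, chr16:37647170-37654453, GRCm38). Ndufb4 stood at 16.7, 13.5, 16.2 and 13.4 CPM in WT and at 33.2, 28.6, 32.8 and 27 CPM in Ncf1-/- libraries, a log2 fold change of 1.02 (SE 0.13, adjusted p = 1.92e-05). All 4 Ncf1-/- libraries were above all WT libraries. A processed copy with identical sequence over 390 bases, Gm3244, held 53.6% of the counts of both genes together, and with these added the log2 fold change of Ndufb4 was 0.78 (SE 0.12, adjusted p = 1.03e-04), below that of Ndufab1 at 0.83. Ndufab1 and the other complex I genes named from here to the end of the paragraph were chosen after their values were seen. Ndufs1, the large iron-sulfur subunit of the electron entry module, was higher by a log2 fold change of 0.40 (SE 0.07, adjusted p = 2.11e-04), and Ndufv1, which binds NADH and flavin, by 0.31 (SE 0.09, adjusted p = 0.0094). Ndufab1, the mitochondrial acyl carrier protein that also serves fatty acid synthesis, rose from 44.7 ± 1.85 to 79.3 ± 2.86 CPM (SD, n = 4 each, edgeR adjusted p = 1.17e-06). The 10 subunits that were not called included Ndufa1 at 0.02 (adjusted p = 0.892), Ndufa13 at 0.03 (adjusted p = 0.846) and Ndufa3 at −0.12 (adjusted p = 0.389), the only nuclear subunit of complex I with a value below 0.

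Of the 7 assembly factors of complex I, 5 were called higher, and the pair with the largest values was Ndufaf6 and Ndufaf5. Ndufaf6, required early in the assembly of the membrane arm, stood at 3.18, 2.91, 3.10 and 3.45 CPM in WT and 5.88, 7.49, 6.97 and 6.34 CPM in Ncf1-/- libraries, a log2 fold change of 1.08 (SE 0.12, adjusted p = 6.64e-06). Ndufaf5, an enzyme that modifies an arginine of Ndufs7 during assembly, stood at 8.45, 7.12, 6.96 and 6.51 CPM and 14.4, 13.6, 14.9 and 13.8 CPM, a log2 fold change of 0.96 (SE 0.11, adjusted p = 1.08e-05). In both genes the Ncf1-/- libraries were all above the WT libraries. Ndufaf2, the assembly factor with the highest TPM (a level scaled by transcript length), had a log2 fold change of −0.07 (adjusted p = 0.778) and Ndufaf3 of 0.18 (adjusted p = 0.339), and these were the factors not called.

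All 4 subunits of complex II, which feeds electrons from succinate into the chain and is also an enzyme of the citric acid cycle, were called higher and had every Ncf1-/- library above every WT library. Sdhd, one of the membrane anchors that bind ubiquinone (ENSMUSG00000000171, chr9:50596357-50603812), stood at 62.3, 49.4, 58.9 and 57.9 CPM in WT and 116, 109, 116 and 109 CPM in Ncf1-/- libraries, a log2 fold change of 0.98 (SE 0.10, adjusted p = 4.58e-06). The other anchor, Sdhc, stood at 94.1, 89.1, 114 and 116 CPM and 149, 134, 148 and 131 CPM, a log2 fold change of 0.45 (SE 0.11, adjusted p = 0.00428). The iron-sulfur subunit Sdhb stood at 102, 84.1, 83.4 and 88.7 CPM and 139, 130.2, 136 and 125 CPM, a log2 fold change of 0.57 (SE 0.09, adjusted p = 1.47e-04). The flavoprotein Sdha, which holds the active site, had the smallest difference of the 4, at 169, 174, 205 and 196 CPM and 219.7, 229.7, 233 and 265 CPM with a log2 fold change of 0.35 (SE 0.09, adjusted p = 0.00368). The differences within the complex ran from 1.27-fold for Sdha to 1.97-fold for Sdhd.

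In complex III, the cytochrome bc1 complex that hands electrons to cytochrome c, 7 of 8 nuclear subunits were called higher, with a median of 0.61. Uqcr10, a small subunit of the membrane region, stood at 59.7, 52.4, 58.8 and 55.1 CPM in WT and 123, 106, 114 and 90.5 CPM in Ncf1-/- libraries, a log2 fold change of 0.94 (SE 0.12, adjusted p = 1.56e-05). The core proteins Uqcrc1 and Uqcrc2 and the Rieske iron-sulfur protein Uqcrfs1, named after their values were seen, had log2 fold changes of 0.59, 0.64 and 0.52 with edgeR adjusted p = 6.44e-05, 5.25e-05 and 1.70e-04. The subunit not called was Uqcr11 at 0.21 (adjusted p = 0.199).

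In complex IV, cytochrome c oxidase, 11 of the 16 nuclear genes tested were called higher, with a median of 0.58. Several of its subunits have isoform genes that differ between tissues, and within these sets the isoforms did not carry equal differences. Cox6b2, the isoform known from testis (ENSMUSG00000051811, chr7:4751792-4753094), stood at 2.23, 0.863, 2.41 and 3.95 CPM in WT, 8.01, 6.67, 7.23 and 5.48 CPM in Ncf1-/- and 13.9, 11.9, 9.13 and 11.4 CPM in Igfbp2-treated Ncf1-/- libraries. The 3 groups did not overlap, and Ncf1-/- was above WT by a log2 fold change of 1.53 (SE 0.30, adjusted p = 6.81e-04), the largest of all members tested. Its widely expressed partner Cox6b1 stood at 162, 142, 153 and 144 CPM in WT and 232, 209, 224 and 175 CPM in Ncf1-/- libraries, a log2 fold change of 0.48 (SE 0.11, adjusted p = 0.00222). Per transcript length Cox6b1 remained the more abundant of the pair in each group, at 475 ± 9.51 TPM in Ncf1-/- NSCs against 16 ± 0.143 TPM for Cox6b2. Cox7a1, the isoform of heart and skeletal muscle, stood at 0.545, 0.485, 1.58 and 0.946 CPM in WT and 2.26, 2.71, 2.65 and 1.94 CPM in Ncf1-/- libraries, a log2 fold change of 1.36 (SE 0.32, adjusted p = 0.00287). The 4 markers of skeletal muscle and heart (Myh7, Ckm, Actc1 and Myl2) summed to 0.364, 0.647, 5.39 and 0.389 CPM in WT replicates 9 to 12 and to 5.18 to 6.35 CPM in Ncf1-/- libraries. Ckm and Myl2 were at or near 0, and of the 2 markers tested 1 was called higher. WT replicate 11 was the highest WT library in Cox7a1 and in these markers, whose part in the difference was not tested. The common partner of Cox7a1, Cox7a2, went from 64.8, 54, 54.8 and 60.8 CPM to 114, 104, 111 and 93.3 CPM, a log2 fold change of 0.85 (SE 0.10, adjusted p = 1.08e-05). Cox7a2l, which joins complexes III and IV in supercomplexes, overlapped between the groups, with a log2 fold change of 0.10 (SE 0.13, adjusted p = 0.525).

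Cox4i1, the common form of a regulatory subunit that binds ATP, stood at 273, 225, 279.8 and 278 CPM in WT and 371, 313, 338 and 266 CPM in Ncf1-/- libraries, and its log2 fold change of 0.29 (SE 0.13, adjusted p = 0.0712) missed the threshold. Its partner Cox4i2, known from lung and induced by low oxygen, stood at 0.0454, 0.162, 0.287 and 2.78 CPM in WT, 0.696, 0.532, 1.28 and 0.671 CPM in Ncf1-/- and 3.43, 1.98, 2.53 and 2.55 CPM in Igfbp2-treated Ncf1-/- libraries, and WT replicate 12 was above the other WT libraries. Ndufa4, now placed in complex IV, rose by a log2 fold change of 0.89 (SE 0.11, adjusted p = 1.82e-05), from 72.7, 64.6, 74.3 and 56.5 CPM in WT to 138, 121, 129 and 108 CPM in Ncf1-/- libraries. Its paralog Ndufa4l2, a gene known to be induced by hypoxia, was low in all groups and stood in WT replicate 12 at 3.0 CPM against 0.318 to 0.755 CPM in the other WT libraries, with a log2 fold change of −0.10 (adjusted p = 0.883) between the groups. The Ncf1-/- libraries held 0.958, 0.918, 1.59 and 0.820 CPM. Without WT replicate 12 the log2 fold change between Ncf1-/- and WT NSCs was 0.82 for Ndufa4l2 (edgeR adjusted p = 0.0539) and 2.09 for Cox4i2, which was then called (adjusted p = 0.00253). Cox6a1 had a log2 fold change of 0.23 (adjusted p = 0.11), Cox6c of 0.56 (adjusted p = 2.02e-04) and Cox8a, the member of the nuclear set of complex IV with the highest TPM, of 0.61 (adjusted p = 3.29e-04). Cox6a2 reached at most 0.981 CPM and Cox8b at most 0.332 CPM in any library.

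ATP synthase had 14 of 15 nuclear subunits called higher, with a median of 0.60. The largest difference was in Atp5g3 (ENSMUSG00000018770, chr2:73908447-73911326), one of the 3 genes that encode the same mature subunit c of the rotating ring. Atp5g3 stood at 132, 112, 132 and 111 CPM in WT and 301, 272, 290.5 and 275 CPM in Ncf1-/- libraries, a 2.34-fold difference with a log2 fold change of 1.23 (SE 0.09, adjusted p = 3.04e-07). Atp5g1 stood at 66.9, 61.9, 54.4 and 58.9 CPM and 98, 89.5, 101 and 81.7 CPM, a log2 fold change of 0.61 (SE 0.10, adjusted p = 1.61e-04). Atp5g2 stood at 121, 114, 139 and 159 CPM and 192, 172, 189 and 147 CPM, a log2 fold change of 0.39 (SE 0.12, adjusted p = 0.0162), and its groups overlapped. In TPM, Atp5g2 was the most abundant of the 3 genes in WT NSCs, at 173 ± 39.6 TPM beside 160.0 ± 24.2 for Atp5g3 and 78.3 ± 2.25 for Atp5g1, and the first pair did not differ beyond their spread. In Ncf1-/- NSCs Atp5g3 stood at 393 ± 32.7 TPM and Atp5g2 at 234 ± 7.60 TPM. Atp5b, the catalytic beta subunit and the nuclear member with the highest TPM of the enzyme, stood at 741, 707, 752 and 684 CPM in WT and 1437, 1404, 1462 and 1399 CPM in Ncf1-/- libraries, a 1.98-fold difference (log2 0.98 (SE 0.09, adjusted p = 2.07e-06)). Atp5o, the stalk subunit that links the catalytic head to the stator, had a log2 fold change of 0.98 (SE 0.11, adjusted p = 6.97e-06). The subunit not called was Atp5e, the epsilon subunit of the central stalk, at 0.37 (SE 0.16, adjusted p = 0.056). Atp5s and Atp5sl, which are no subunits of the enzyme, had log2 fold changes of −0.01 and −0.11 (edgeR adjusted p = 0.953 and 0.396).

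**Figure D3:**
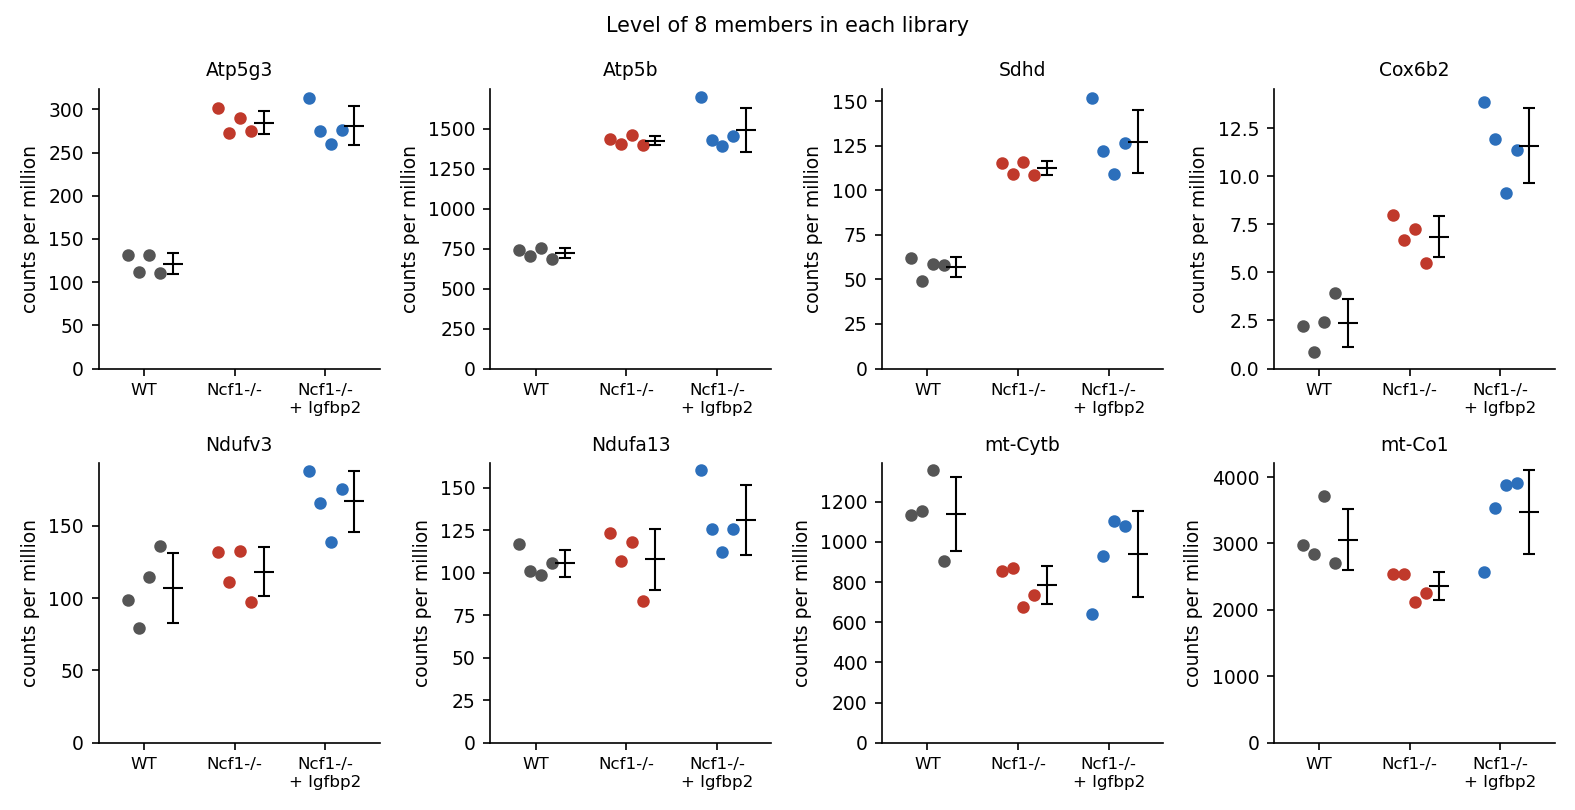
Level of 8 members in each library (vertical axes, CPM) of WT, Ncf1-/- and Igfbp2-treated Ncf1-/- NSCs, with 1 point per library and the mean and SD of 4 libraries beside them. Atp5g3, Atp5b, Sdhd and Cox6b2 show no overlap between WT and the 8 Ncf1-/- libraries, Ndufv3 lies above the vehicle range with Igfbp2, Ndufa13 overlaps in all groups, and mt-Cytb and mt-Co1 lie lower in Ncf1-/- than in WT libraries.

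The mitochondrial mRNAs, which are cut from long transcripts of both strands of the circular genome, did not follow the nuclear members. Apocytochrome b, the mitochondrial subunit of complex III (mt-Cytb, chrM:14145-15288), stood at 1136, 1154, 1356 and 906 CPM in WT and 853, 872, 678 and 737 CPM in Ncf1-/- libraries, a log2 fold change of −0.54 (SE 0.17, adjusted p = 0.0177). The complex I subunit mt-Nd4 stood at 601, 594, 676 and 446 CPM and 430.4, 446, 369 and 432 CPM, a log2 fold change of −0.47 (SE 0.17, adjusted p = 0.0277). Both were called lower, and the groups did not overlap, although in mt-Nd4 WT replicate 12 at 446.3 CPM and Ncf1-/- replicate 2 at 445.8 CPM nearly met. The catalytic subunit of complex IV, mt-Co1, at 2971, 2842, 3722 and 2699 CPM in WT and 2537, 2536, 2118 and 2258 CPM in Ncf1-/- libraries, also had no overlap, but its log2 fold change of −0.37 (SE 0.16, adjusted p = 0.0579) missed the threshold. The other complex I subunits lay on both sides of 0, at 0.43 for mt-Nd3, 0.31 for mt-Nd6, 0.25 for mt-Nd1, −0.02 for mt-Nd2, −0.25 for mt-Nd5 and −0.42 for mt-Nd4l, and none was called by edgeR (adjusted p from 0.0659 to 0.95). The ATP synthase subunits mt-Atp6 and mt-Atp8, whose reading frames overlap, were at −0.07 and 0.27. None was called lower by edgeR when counts were scaled to library totals alone, where 20.1% of all genes were. By limma on TPM none was called lower either, where 17.9% to 18.5% were. The 2 calls also depended on single libraries: without WT replicate 12, 4 of 13 mitochondrial mRNAs were called lower, where 28.5% of all genes were, and their median was −0.21. Without Ncf1-/- replicate 3, 0 were called, where 26.8% of all genes were, and without WT replicates 9 and 10 together 0, where 26.3% were. Without Igfbp2-treated replicate 5, 4 were called, where 29.3% of all genes were. Leaving out WT replicate 9, 10 or 11 or Ncf1-/- replicate 1 left 1 call, where 26.1% to 28.3% of all genes were called lower.

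Most counts that match mt-Co2 and mt-Co3 were assigned to nuclear copies of mitochondrial DNA. A block on chromosome 1 (chr1:24611535-24616197, GRCm38) holds 7 annotated pseudogenes that match mitochondrial mRNAs, and among them Gm28661 (chr1:24614885-24615565) is identical to mt-Co2 over 681 bases and Gm28437 (chr1:24613189-24613971) to mt-Co3 over 783 bases. RSEM shares out reads that match several genes, and Gm28661 received 98.6% of the counts of itself and mt-Co2, and Gm28437 92.7% of those of itself and mt-Co3. The share was 26.0% for Gm10925 with mt-Atp6 and 3.01% for Gm29216 with mt-Co1. The member mt-Co2 itself stood at 15.2, 8.95, 14.3 and 0 CPM in WT, 14.4, 7.93, 29.2 and 18 CPM in Ncf1-/- and 9.07, 80.6, 15.9 and 0 CPM in Igfbp2-treated Ncf1-/- libraries, so that a library of each of 2 groups was at 0. With Gm28661 added, mt-Co2 stood at 1166, 1132, 1507 and 1175 CPM, 1065, 1107, 939 and 1009 CPM and 1019.5, 1434, 1573 and 1650.0 CPM in the same order, levels that vary far less among the libraries of a group. Identical reads cannot be told apart by origin, so the sum is that of the mitochondrial mRNA and the nuclear copy.

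**Figure D4:**
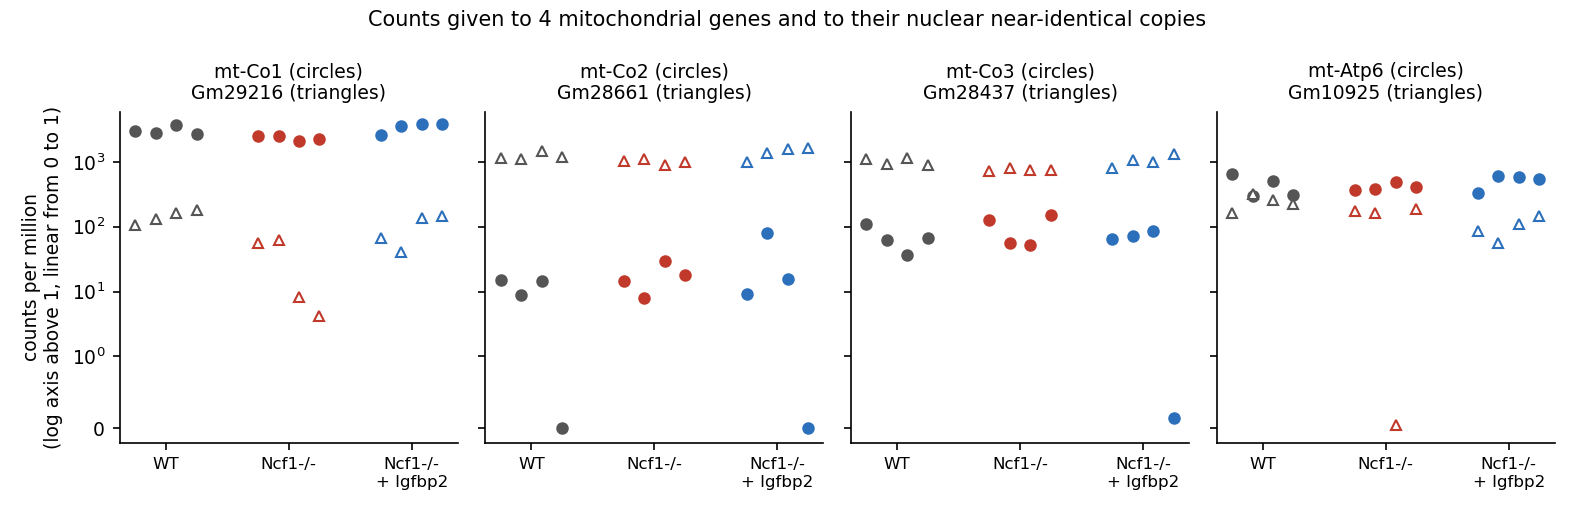
Level of mt-Co1, mt-Co2, mt-Co3 and mt-Atp6 (filled circles) and of the nuclear pseudogene that each matches (open triangles) in every library, in CPM on an axis that is logarithmic above 1 and linear from 0 to 1. Gm28661 lies far above mt-Co2 and Gm28437 far above mt-Co3 in every library, while mt-Co1 lies above Gm29216 in every library.

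With the copies added to the members, 4 of 13 mitochondrial mRNAs were called lower in Ncf1-/- than in WT NSCs, where 28.2% of all genes were, and the median of the 13 was −0.27. The log2 fold change of mt-Co3, the third core subunit of complex IV, changed sign, from 0.48 (SE 0.80) to −0.35 (SE 0.13, adjusted p = 0.0309). That of mt-Co1 was −0.42 (SE 0.16, adjusted p = 0.0379), that of mt-Co2 −0.27 (SE 0.15, adjusted p = 0.136) and that of mt-Atp6 −0.31 (SE 0.17, adjusted p = 0.129). Adding these copies was chosen after the data were seen, and it left the median of the nuclear members at 0.48.

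The ratio of the summed mitochondrial to the summed nuclear counts is given as a description, without a test. It was 0.914, 0.941, 1.07 and 0.750 in WT replicates 9 to 12 and 0.509, 0.563, 0.445 and 0.545 in Ncf1-/- replicates 1 to 4, with no overlap. In TPM the ratio was 0.512 to 0.754 in WT and 0.359 to 0.483 in Ncf1-/- libraries, again with no overlap. With Igfbp2 it was 0.361, 0.615, 0.745 and 0.632 in replicates 5 to 8, so that replicate 5 was below and the other 3 were above the vehicle libraries, and none reached the lowest WT library. In TPM the ratio with Igfbp2 was 0.260, 0.451, 0.541 and 0.452, so that replicate 7 was above WT replicate 12 and replicates 6 and 8 lay within the vehicle range. Mitochondrial mRNAs made up 0.448% to 0.843% of all counts, and 0.626% to 1.16% with their nuclear copies.

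Igfbp2 given to Ncf1-/- NSCs was followed by small differences in the same set. The nuclear sum was 13868, 11748, 10827 and 12206 CPM (mean 12162 ± 1274, SD, n = 4) against 10246 to 11742 CPM with vehicle, and the groups overlapped. Of the 88 nuclear members tested, 5 were called higher, where 14.2% of all genes tested were, and 0 were called lower, where 10.7% were. The values of 84 of the 88 were above 0, but small, with a median of 0.14 beside 0.04 over all genes. In 7 of the 88 every Igfbp2-treated library was above every vehicle library, where 19.3% of all genes had this. Both shares of members called lie below the background. With only the 2 Ncf1-/- groups in the fit 9 of the 101 members were called higher, where 19.5% of all genes were. With the NSC preparation as a block as well, 11 of the 101 members were called higher and 0 lower. Of all genes tested in that fit, 19% were called higher and 17% lower. The block follows the pairing by animal as the study describes it, although every pair differed in the Y-linked genes.

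Of the 5 nuclear genes called, 4 encode complex I subunits. Ndufv3, a subunit of the NADH-binding module (ENSMUSG00000024038, chr17:31520115-31531331), stood at 132, 111, 132 and 97.5 CPM with vehicle and 188, 166, 138 and 176 CPM with Igfbp2, a log2 fold change of 0.50 (SE 0.16, adjusted p = 0.0368). Ndufa6, a subunit of the arm in the matrix, stood at 43.7, 39.8, 45.7 and 39.1 CPM and 61.8, 50.8, 50.5 and 62.3 CPM, a log2 fold change of 0.42 (SE 0.12, adjusted p = 0.0241). In these genes no vehicle library reached an Igfbp2-treated library. Ndufa7 and Ndufs7, the latter carrying the last iron-sulfur cluster before ubiquinone, had log2 fold changes of 0.43 (SE 0.14, adjusted p = 0.0385) and 0.30 (SE 0.10, adjusted p = 0.0412), and the epsilon subunit Atp5e of 0.47 (SE 0.15, adjusted p = 0.0406), all with groups that overlapped. Of these 5, Ndufv3, Ndufa6, Ndufa7 and Atp5e were among the members not called between Ncf1-/- and WT NSCs. The mitochondrial mRNA called was mt-Co1, at 2537, 2536, 2118 and 2258 CPM with vehicle and 2564, 3537, 3887 and 3917 CPM with Igfbp2, a log2 fold change of 0.56 (SE 0.16, adjusted p = 0.0226) with no overlap. With nuclear copies added, mt-Co2 at 0.46 (SE 0.15, adjusted p = 0.0399) and mt-Co3 at 0.37 (SE 0.13, adjusted p = 0.0496) were called too, and mt-Co1 remained at 0.58 (SE 0.16, adjusted p = 0.0208).

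Among the members tested, those with the largest values after Igfbp2 were the low complex IV isoforms, and these missed the threshold. Cox4i2 had a log2 fold change of 1.72 (SE 0.72, adjusted p = 0.0972), Ndufa4l2 of 1.13 (SE 0.50, adjusted p = 0.115) and Cox6b2 of 0.76 (SE 0.28, adjusted p = 0.0604), with every Igfbp2-treated library above every vehicle library in each. Without WT replicate 12 in the fit, Cox4i2 at 1.68 (edgeR adjusted p = 0.00374) and Ndufa4l2 at 1.09 (adjusted p = 0.0142) were called. Some markers of other cell types differed as well. The 5 mesenchymal and mural markers summed to 8.79 to 11 CPM with vehicle and 20.5 to 24.4 CPM with Igfbp2, and 3 of 5 were called higher. The 4 endothelial markers summed to 3.26 to 6.19 CPM and 9.41 to 14.3 CPM. Of the 2 tested 1 was called higher, and Cdh5 was near 0 in all groups. Among 6 neuron markers 2 were called lower and 0 higher, and among 6 neural stem and progenitor markers 1 was called lower and 0 higher. The 8 oligodendrocyte markers summed to 669 to 748 CPM with vehicle and 786 to 825 CPM with Igfbp2. Of these 8, and of 5 astrocyte markers, 0 were called in either direction. The part of these markers in the result was not tested. Sdha, at 219.7, 229.7, 233 and 265 CPM with vehicle and 277, 272, 281 and 291 CPM with Igfbp2, also had no overlap and a log2 fold change of 0.24 (SE 0.09, adjusted p = 0.0549). Atp5g3, the gene of ATP synthase with the largest difference between the genotypes, had a log2 fold change of −0.02 (SE 0.09, adjusted p = 0.9) after Igfbp2. The 6 calls fell to 0 without Igfbp2-treated replicate 8, to 1 without Igfbp2-treated replicate 5, to 2 without Ncf1-/- replicate 2 or 3 or Igfbp2-treated replicate 6, and to 3 without Ncf1-/- replicate 1. In these fits 7.48% to 9.82% of all genes were called higher, where 14.2% were in the main fit. On TPM the direction turned, with a nuclear median of −0.36 and 55 of 101 members called lower by limma, where 39.2% to 40.5% of all genes were, while the median of all genes was itself −0.30. Relative to that median the nuclear members stood at −0.06 on log2(TPM + 1) and at 0.10 on scaled counts. On log2(TPM + 0.1), where the median of all genes was −0.42, they stood above it. Structural RNAs, which TPM includes in its fixed sum, made up 56.0% to 60.3% of TPM in vehicle and 62.1% to 72.3% in Igfbp2-treated libraries, and their part in the turn was not tested.

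Against WT NSCs, Igfbp2-treated Ncf1-/- NSCs had 79 of 88 nuclear members called higher, where 31.6% of all genes were, and 0 lower, where 30.8% were, with a median of 0.66. Each complex had a median above 0, which was 0.62 for complex I, 0.71 for complex II, 0.72 for complex III, 0.94 for complex IV and 0.75 for ATP synthase. All nuclear subunits tested of complexes II and III and of ATP synthase were called. Among the members tested, the largest differences were in Cox6b2 at 2.29 (SE 0.30, adjusted p = 2.60e-05), Cox7a1 at 1.83 (SE 0.32, adjusted p = 2.87e-04) and Cox4i2 at 1.78 (SE 0.73, adjusted p = 0.0494), the last with groups that overlapped through WT replicate 12. Without that library Cox4i2 was at 3.77 (edgeR adjusted p = 1.98e-05). Uqcr10 stood at 155, 127, 110.4 and 135 CPM with Igfbp2, a 2.33-fold difference from WT (log2 1.22 (SE 0.12, adjusted p = 1.94e-06)), and Sdhd at 152, 122, 109 and 126 CPM, a 2.23-fold difference (log2 1.16 (SE 0.10, adjusted p = 1.19e-06)). Of the 13 mitochondrial mRNAs, 0 were called in either direction by edgeR at 0.05. Without WT replicate 12, 3 of 13 were called lower, where 33.7% of all genes were, and 2 without Ncf1-/- replicate 3, where 33.4% were. Leaving out WT replicate 10 or Igfbp2-treated replicate 5, 6 or 7 gave 1 called lower, where 30.7% to 32.8% were. By limma on TPM fewer members were called higher, where 12.5% to 13% of all genes were. Some members were then called lower, where 43.9% to 44.6% of all genes were. This comparison shares its WT libraries with the first and its Igfbp2-treated libraries with the second.

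Other genes of the pathway were followed in fixed lists. Between Ncf1-/- and WT NSCs, 55 of 89 such genes tested were called higher and 4 lower, beside 28.9% and 28.2% of all genes. All 10 genes of electron carriers and ubiquinone synthesis were called higher, among them Cycs, cytochrome c, at 0.94 (SE 0.15, adjusted p = 1.10e-04) and Coq7, a hydroxylase of ubiquinone synthesis, at 1.15 (SE 0.08, adjusted p = 2.54e-07). Of 13 citric acid cycle genes 12 were called higher, with fumarase (Fh1) at 1.13 (SE 0.08, adjusted p = 2.43e-07) and citrate synthase (Cs) at 0.59 (SE 0.11, adjusted p = 4.61e-04). All 7 carriers were called higher, with the ADP/ATP carrier Slc25a5 at 1.31 (SE 0.15, adjusted p = 7.38e-06) and the phosphate carrier Slc25a3 at 0.61 (SE 0.07, adjusted p = 1.01e-05). Assembly factors were called higher in 2 of 7 genes for complex I outside the Ndufaf family, 2 of 4 for complex II, 2 of 6 for complex III, 9 of 18 for complex IV and 2 of 4 for ATP synthase, and 1, Ttc19 of complex III, was called lower at −0.47 (SE 0.12, adjusted p = 0.005). Of 12 genes for transcription, translation control and replication of mitochondrial DNA 6 were called higher and 0 lower. Tfam, which packs mitochondrial DNA and starts its transcription, had a log2 fold change of 0.18 (SE 0.09, adjusted p = 0.112) and the RNA polymerase Polrmt of −0.01 (SE 0.10, adjusted p = 0.919).

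Among 8 transcriptional regulators of respiratory genes, 3 were called higher and 3 lower, where 28.9% and 28.2% of all genes were. Ppargc1a, the coactivator PGC-1 alpha, stood at 17.6, 20.9, 23.4 and 21 CPM in WT and 32.4, 35.4, 33 and 41.6 CPM in Ncf1-/- libraries, a log2 fold change of 0.78 (SE 0.10, adjusted p = 2.14e-05). Esrra, the nuclear receptor ERR alpha that works with it, stood at 21.9, 20.9, 29.4 and 25.8 CPM and 39.7, 37.2, 41.8 and 37.4 CPM, a log2 fold change of 0.67 (SE 0.11, adjusted p = 1.66e-04). Gabpb1, the beta subunit of the ETS factor GABP, rose by 0.35 (SE 0.10, adjusted p = 0.00861), whereas its DNA-binding subunit Gabpa was lower at −0.26 (SE 0.08, adjusted p = 0.00981), as were Yy1 at −0.33 (SE 0.09, adjusted p = 0.00925) and Pprc1 at −0.40 (SE 0.12, adjusted p = 0.0135). Nrf1 had a log2 fold change of 0.05 (SE 0.08, adjusted p = 0.624). After Igfbp2, 13 of the 89 pathway genes were called higher and 5 lower, beside 14.2% and 10.7% of all genes, with Ucp2, an uncoupling protein family member, at 1.79 (SE 0.52, adjusted p = 0.026), Yy1 at 0.38 (SE 0.09, adjusted p = 0.0132) and Mterf3, a negative regulator of mitochondrial transcription, at −0.68 (SE 0.09, adjusted p = 6.76e-04).

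Base composition was compared between members called and not called, without a test. Median GC content was 49.0% in the transcripts of the 67 nuclear members called higher in Ncf1-/- NSCs and 53.7% in those of the 21 not called. Over all genes it was 48.5% for those called higher, 48.95% for those not called and 50.9% for those called lower. The part of GC content in the calls was not tested. Counting did not state strand, so that reads of members that overlap a gene on the other strand, such as Cox4i1 with Emc8 and Atp5j with Gabpa, could not be told from those of the neighbour. Of the members 3 lie on the X chromosome (Ndufa1, Ndufb11 and Cox7b), and their log2 fold changes between the genotypes were 0.02, 0.29 and 0.84.

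Promoters were available for 76 of the 92 nuclear members, as 250 bases before to 50 after the start site (RefSeq, GRCm38.p6), and were searched on both strands for the motifs of factors known to act on respiratory genes. The NRF1 motif GCATGCGC was found in 15.8% of members and in 3.05% of 27025 genes with a promoter, the YY1 motif AAGATGGC in 14.5% and 3.19%, and the ERR motif TCAAGGTCA in 2.63% and 0.466%. The ETS motif CCGGAAGT (6.58% and 4.31%), the CRE motif TGACGTCA (5.26% and 2.03%) and the Sp1 motif GGGCGG (44.7% and 38.2%) were also searched, and each motif was counted on its own. The NRF1 motif stood in 7 of 56 promoters of members called higher (12.5%) and in 5 of 18 of members not called (27.8%), and the Sp1 motif in 37.5% and 66.7%. The ERR motif was found in 2 of the 56 promoters of members called higher (3.57%) and in 0 of the 18 of members not called. These 2 members were Atp5g3 and Sdhd, those with the largest log2 fold change of ATP synthase and of complex II. The part of the motif in their levels was not tested. Both are printed because they carry this match on the reverse strand, as TGACCTTGA, and Uqcrc1 and Cox6a1 are printed as a called and an uncalled member with the NRF1 palindrome, which counts once on each strand. Capitals mark the motifs, read 5′ to 3′ on the strand of the gene. The windows are chr2:73911277-73911576 (minus strand) for Atp5g3, chr9:50603800-50604099 (minus) for Sdhd, chr9:108936398-108936697 (plus) for Uqcrc1 and chr5:115348909-115349208 (minus) for Cox6a1.
Atp5g3: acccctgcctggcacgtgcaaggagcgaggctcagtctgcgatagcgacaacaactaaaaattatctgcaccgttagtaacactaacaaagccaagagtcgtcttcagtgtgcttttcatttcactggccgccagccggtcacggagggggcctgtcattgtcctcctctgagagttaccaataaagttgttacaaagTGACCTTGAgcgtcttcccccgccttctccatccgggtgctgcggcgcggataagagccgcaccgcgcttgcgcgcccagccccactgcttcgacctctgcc
Sdhd: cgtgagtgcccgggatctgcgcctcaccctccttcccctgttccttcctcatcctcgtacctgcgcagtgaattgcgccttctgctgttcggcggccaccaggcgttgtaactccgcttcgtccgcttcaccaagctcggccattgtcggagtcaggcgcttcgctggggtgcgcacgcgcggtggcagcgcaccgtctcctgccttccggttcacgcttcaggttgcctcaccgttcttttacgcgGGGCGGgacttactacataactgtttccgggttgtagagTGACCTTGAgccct
Uqcrc1: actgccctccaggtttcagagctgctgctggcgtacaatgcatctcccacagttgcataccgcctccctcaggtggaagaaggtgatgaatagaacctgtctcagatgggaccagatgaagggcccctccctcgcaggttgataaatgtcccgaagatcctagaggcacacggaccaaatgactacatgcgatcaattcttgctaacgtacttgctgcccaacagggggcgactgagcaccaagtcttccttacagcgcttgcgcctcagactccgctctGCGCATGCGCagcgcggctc
Cox6a1: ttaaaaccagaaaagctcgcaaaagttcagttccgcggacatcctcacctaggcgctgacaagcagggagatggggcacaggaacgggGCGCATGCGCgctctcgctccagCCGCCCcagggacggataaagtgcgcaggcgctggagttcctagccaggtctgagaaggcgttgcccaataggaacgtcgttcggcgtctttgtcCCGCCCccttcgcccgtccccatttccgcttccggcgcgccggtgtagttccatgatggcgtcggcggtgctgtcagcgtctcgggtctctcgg
A match to these letters is a description of the window and no evidence of binding.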

How the data were processed

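RNA depleted of ribosomal RNA was sequenced from 12 cultures. Per the labels and the submitters' processing notes, the authors mapped reads with Bowtie2 to GRCm38 and quantified genes with RSEM, and versions, annotation release and strand are not given in the sources used here. The files deposited by the authors hold the expected count per gene (RSEM's estimate, not normalized) and TPM, which RSEM scales to a fixed sum per library. A merged table deposited by the authors holds a score equal to TPM times the number of transcripts, used here for gene symbols only.

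Expected counts were rounded and tested with edgeR 4.0.16 (R 4.3.3) by glmQLFit and glmQLFTest, with filterByExpr, TMM factors and a mean per group over all 12 libraries, and p-values were adjusted by Benjamini-Hochberg over 15706 genes. Tests were two-sided. The study's own test ran on TPM, and a count test was used here because counts were deposited. CPM are TMM-scaled. Members and lists were chosen with earlier results of these data known. Members named are the mitochondrial mRNAs, Sdh genes, isoform partners, in each direction and comparison the 8 nuclear members with the largest change (called, groups apart, 5 CPM or more on average), and the highest TPM per complex. All other members named were chosen after their values were seen. Near-identical copies were found with BLAST 2.17.0 (at least 98% identity over 150 bases), and 33 copies were added to 23 members as an alternative. Positions are from GENCODE for GRCm38. The fit was also run with DESeq2 1.42.0, on library totals, on totals without structural and mitochondrial RNAs, on unfiltered genes, on genes averaging 5 CPM or more, on 2 groups at a time, with limma 3.58.1 on log2(TPM + 1) and log2(TPM + 0.1), an adjusted p under 0.01, a log2 fold change of at least 0.5, the NSC preparation as a block, without WT replicates 9 and 10 (chosen after seeing the data), and with each library left out. The study pairs vehicle and Igfbp2 cultures by animal, but deviations of paired cultures correlated at −0.0585 to 0.0151, against −0.214 to 0.219 for other pairs. The scripts were tested on simulated counts for Ncf1-/- against WT. Of 100 genes given a log2 change of 0.5, 34 were recovered, and of 100 given a change of 1, 96 were. Of 142 genes called, 12 had been given no change. A gene not called may thus still differ by the smaller size. Fewer genes were called there than in the data, so these shares need not hold for the members. Within a group, replicates came from separate preparations by the study's account. Every Ncf1-/- library given vehicle held Y-linked and Xist transcripts at similar levels, and whether these came from separate animals was not tested. The SD, SE and adjusted p given here treat them as separate. The values of 1 gene of the pathway lists are not reported here.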

Additional observations from a re-analysis of the deposited data

Results flagged for a closer look

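Of 135 groups of 4 libraries examined, in which chance marks about 1 in 20, 4 held a library far from the other 3. In WT NSCs, Cox4i1 stood at 225 CPM in replicate 10 against 273 to 280 CPM in the other WT libraries. Cox4i2 stood at 2.78 CPM in WT replicate 12 against 0.0454 to 0.287 CPM, and Ndufa4l2 at 3.0 CPM in the same library against 0.318 to 0.755 CPM. In Igfbp2-treated Ncf1-/- NSCs, Ndufaf6 stood at 6.52 CPM in replicate 8 against 7.31 to 7.45 CPM.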

How the results depend on the processing

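Members called higher between Ncf1-/- and WT NSCs, 67 of 101 tested, numbered 60 to 70 with any 1 library left out (24.7% to 30.8% of all genes). They numbered 42 with a log2 fold change of at least 0.5. For this threshold and for an adjusted p under 0.01, here and below, the share of all genes was not counted. Members called lower, 2, numbered 0 to 4 with any 1 library left out (25.7% to 29.6% of all genes). They numbered 0 with library totals (20.1%), with limma on either TPM scale (17.9% to 18.5%) and without WT replicates 9 and 10 (26.3%). At an adjusted p under 0.01 they also numbered 0. At a log2 fold change of at least 0.5 there was 1, and with copies added there were 4 (28.2%). The nuclear median was 0.43 to 0.53 with 1 library left out and 0.66 with library totals, where the median of all genes was 0.19, and the mitochondrial median was −0.21 to 0.17 and, with copies added, −0.27. With copies added mt-Co3 turned to −0.35, and to 0.37 after Igfbp2.

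Members called higher after Igfbp2, 6, numbered 0 to 9 with 1 library left out (7.48% to 18% of all genes). They numbered 0 with library totals (4.13%), limma (1.05% to 1.27%) or an adjusted p under 0.01. At a log2 fold change of at least 0.5 there was 1, and at 5 CPM 2 (12.7%). Scaling without mitochondrial and structural RNAs gave 3 (11.6%). With only the 2 groups compared there were 9 (19.5%). The NSC preparation as a replicate block in that same fit of 2 groups gave 11 (19%). Members called lower, 0, were 0 with any library left out, 7 with library totals, where 33.3% of all genes were, and 55 with limma on either scale, where 39.2% to 40.5% were. The nuclear median, 0.04 to 0.18 with 1 library left out, was −0.13 with library totals and −0.36 with limma, and the mitochondrial median, −0.02 to 0.21, was −0.18 with library totals and −0.49 and −0.50 with limma at pseudocounts of 1 and 0.1. The median of all genes was −0.23 with library totals and −0.30 and −0.42 with limma, and nuclear members stood 0.10 above it, 0.06 below it and 0.06 above it.

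On the TPM scales of limma, log2 fold changes after Igfbp2 turned for Atp5b to −0.42, Atp5g1 to −0.35, Atp5o to −0.45, Cox4i1 to −0.36 and −0.37, Cox6a1 to −0.34, Cox6b1 to −0.46, Cox6c to −0.43, Cox7a2 to −0.36, Cox8a to −0.37, Ndufa4 to −0.48, Ndufa6 to −0.10, Ndufaf2 to −0.45 and −0.48, Ndufaf5 to −0.36 and −0.39, Ndufb4 to −0.46 and −0.48 and Sdhb to −0.35, with both pseudocounts given where they differ, and those against WT for Cox4i1 to −0.013, Cox6a1 to −0.038 and Cox7a2l to −0.087. This list is not complete. Other named members with a log2 fold change above 0 on counts also had a lower mean TPM after Igfbp2 than with vehicle. Among them were Uqcr10 (259 against 310 TPM), Sdhd (60.7 against 75.4), Sdhc (73.4 against 82.8) and Atp5g2 (188 against 234). The cause was not tested.

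Against WT, Igfbp2-treated Ncf1-/- NSCs had 72 to 81 members called higher with 1 library left out, where 26.5% to 32.7% of all genes were. With limma they had 35, where 12.5% to 13% of all genes were. Members called lower, 0, numbered 0 to 3 with 1 library left out (28.9% to 33.7% of all genes) and 1 with DESeq2 (31.8%). They numbered 2 with library totals (34.8%), structural RNA scaling (34.4%) or 5 CPM (33.4%), and 7 with limma (43.9% to 44.6%). The nuclear median was 0.55 to 0.69 with 1 library left out and 0.23 with limma, and the mitochondrial median −0.21 to 0.17 and −0.42. Over 126 results of 45 named members, other values were counted as the same in 877 of 921 instances for Ncf1-/- against WT (1 as reversed). The numbers were 877 of 963 after Igfbp2 (31 as reversed) and 834 of 921 for the last comparison (6 as reversed). Not every change of sign was counted as reversed. The isoforms Cox6a2, Cox7b2, Cox8b and Cox8c did not pass the filter on low counts and could not be tested.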
